A study of Rattus norvegicus with 6 samples.

Results

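The genes described here are 52 of the 30560 genes counted in single-nucleus RNA sequencing of rat brain. They are all genes of the annotation whose symbol is Dnah, Cfap or Rfx followed by a number (Rfx 1 to 8), which gave 12 Dnah, 32 Cfap and 8 Rfx genes. The nuclei came from 12-week-old male wild-type Wistar rats, 48 h after permanent occlusion of the right middle cerebral artery with an intraluminal filament (MCAO) or after a Sham operation. Frozen tissue was taken from the coronal region of maximal lesion extent and pooled into 6 libraries. Sham L and Sham R were the hemispheres of 4 Sham-operated rats. The mMCAO libraries came from the contralateral (contra) and the occluded (ipsi) side of 3 rats whose infarctions were moderate, the sMCAO libraries from those of 4 rats whose infarctions were severe. The groups compared were Sham, MCAO contra and MCAO ipsi, with 2 libraries each. The 2 libraries of a group were either 2 sides of the same rats or differed in severity, so that p-values measure only the spread between these libraries. Dnah9 and Rfx3 were named by the study on the same samples, and Cfap46 and Cfap54, which it also named, were not among the symbols of the counts and were not analysed here.

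Motile cilia beat because dynein heavy chains, the products of Dnah genes, slide the microtubule doublets of the axoneme against each other. Outer arm heavy chains set the beat frequency and inner arm heavy chains its waveform, while Cfap (cilia and flagella associated protein) genes encode parts of the central apparatus, the tethers and spokes that hold the arms, and proteins inside the microtubules. Rfx genes encode winged-helix transcription factors that bind a motif called the X-box in promoters of ciliary genes, and some of them act in cells without motile cilia. In the brain, motile cilia are carried by ependymal cells, which line the ventricles and move cerebrospinal fluid. Astrocytes carry a single primary cilium, which does not beat.

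Promoter sequences were searched for the X-box, since Rfx factors and their possible ciliary targets are described together. A RefSeq promoter window, from 250 bases before to 50 bases after an annotated start in the build GRCr8, was at hand for 45 of the 52 genes. The X-box, searched as GTNNCC and GNAAC with 3 bases between them on either strand (N is any base), was found in a window of 7 of these 45 genes (15.6%), compared with 605 of 27457 genes (2.20%) in the whole table. Those genes were Cfap20dc, Cfap44, Cfap45, Cfap61, Cfap298, Dnah2 and Dnah12. The shorter RFX core GTTGCC, which can lie inside an X-box, was found in 18 genes (40%), compared with 13.1% of all genes. The forkhead motif GTAAACA was found in 3 (6.67%), compared with 4.13% of all genes. Genes with several annotated starts have several windows, and the 45 genes had 91. Counted by window, the X-box was in 9.89%, compared with 2.06% of all windows, the shorter core in 24.2%, compared with 12.2%, and the forkhead motif in 4.40%, compared with 3.78%. These shares describe letters in windows and not bound sites. Spacings other than 3 bases were not searched. Windows are given for 4 genes with an X-box whose transcripts are described further on. The window of Dnah9, the dynein gene that differed most often between groups of astrocyte-like nuclei, held no X-box of this spacing and is given too. They read 5′ to 3′ on the gene's strand as follows, with the X-box in capitals.
Dnah12 (chr16:1944502-1944801, + strand, GRCr8): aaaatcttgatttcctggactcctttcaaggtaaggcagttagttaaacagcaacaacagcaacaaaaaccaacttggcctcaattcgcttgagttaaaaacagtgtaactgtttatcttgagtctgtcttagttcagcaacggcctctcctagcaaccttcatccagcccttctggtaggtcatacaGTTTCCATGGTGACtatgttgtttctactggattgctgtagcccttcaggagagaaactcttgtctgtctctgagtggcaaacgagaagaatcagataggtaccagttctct
Cfap44 (chr11:69789856-69790155, - strand, GRCr8): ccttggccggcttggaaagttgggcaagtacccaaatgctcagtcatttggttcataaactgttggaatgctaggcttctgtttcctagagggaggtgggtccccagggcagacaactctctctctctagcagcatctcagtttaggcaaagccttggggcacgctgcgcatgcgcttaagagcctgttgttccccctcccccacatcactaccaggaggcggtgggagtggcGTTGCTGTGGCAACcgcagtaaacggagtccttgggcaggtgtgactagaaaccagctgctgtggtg
Cfap61 (chr3:153807422-153807721, + strand, GRCr8): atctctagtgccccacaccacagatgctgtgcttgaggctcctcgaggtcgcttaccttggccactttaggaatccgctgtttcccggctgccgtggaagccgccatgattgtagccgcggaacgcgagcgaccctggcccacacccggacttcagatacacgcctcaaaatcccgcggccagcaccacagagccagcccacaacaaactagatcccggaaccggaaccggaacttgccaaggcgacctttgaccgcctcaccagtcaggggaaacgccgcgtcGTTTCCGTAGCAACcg
Cfap20dc (chr15:18661312-18661611, + strand, GRCr8): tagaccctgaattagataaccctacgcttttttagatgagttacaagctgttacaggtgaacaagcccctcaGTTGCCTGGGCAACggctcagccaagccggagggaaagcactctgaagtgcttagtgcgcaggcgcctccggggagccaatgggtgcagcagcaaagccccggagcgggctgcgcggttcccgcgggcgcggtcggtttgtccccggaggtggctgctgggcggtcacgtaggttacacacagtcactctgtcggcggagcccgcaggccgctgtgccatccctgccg
Dnah9 (chr10:51363914-51364213, - strand, GRCr8): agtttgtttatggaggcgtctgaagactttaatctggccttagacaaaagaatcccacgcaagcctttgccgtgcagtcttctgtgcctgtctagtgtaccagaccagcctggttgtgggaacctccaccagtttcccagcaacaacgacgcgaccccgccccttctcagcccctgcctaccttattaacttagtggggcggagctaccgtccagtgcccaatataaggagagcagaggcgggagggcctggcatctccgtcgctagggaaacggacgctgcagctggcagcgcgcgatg
The X-box began 17 bases before the annotated start in Cfap44, 62 bases before it in Dnah12 and 178 bases before it in Cfap20dc, where it read as an X-box on both strands. In Cfap61 it began 35 bases after the first of its annotated starts.

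The files held 33012945 to 52513380 UMIs (unique molecular identifiers, each standing for 1 captured transcript) per library, of which 44879 to 73609 were of the 52 genes. Intronic reads were counted, so that long genes such as those of dynein heavy chains collect more UMIs, and levels are compared only for the same gene between classes or libraries. Pairs of libraries shared 118 to 281 barcodes (1.34 to 2.18% of the smaller library). After filters on depth and mitochondrial share and without predicted doublets, 69967 nuclei remained. Classes were set by marker genes, none of which is a Dnah, Cfap or Rfx gene, and are called ependymal-like, astrocyte-like and so on. Levels are UMIs of a gene per 1000000 UMIs of the class in the library (CPM), and intervals are exact Poisson or binomial 95% intervals that cover counting error only.

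Ependymal-like nuclei were few: 23 and 7 in Sham L and Sham R, 71 and 36 in the MCAO contra libraries (moderate and severe), and 63 and 89 in the MCAO ipsi libraries, or 289 nuclei (0.413%) in all. They carried 11845 to 19319 CPM of 17 ependymal markers (Foxj1 and Fam216b, also on the list of 19, were not among the symbols), compared with 59.4 to 245 CPM in astrocyte-like nuclei, and no UMI of Ttr, the defining transcript of choroid plexus. No nuclei were classed as choroid plexus, so that Ttr could not be checked in a class where it should be high. Many of these markers, such as Hydin and Spag17, are themselves ciliary genes, so that a higher level of other ciliary genes is partly built into the class. Their median depth was 567 UMIs in Sham R, 713 in Sham L and 800.5 to 1774 in the other libraries. The neuronal transcript Rbfox1 stood at 2296 and 2820 CPM in the ependymal-like nuclei of Sham L and Sham R, 997 and 1431 CPM in those of the MCAO contra libraries (moderate and severe), and 528 and 159 CPM in those of the MCAO ipsi libraries. The part of this gradient in the levels of the 52 genes was not tested.

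The ciliary genes were concentrated in the ependymal-like nuclei. These 0.413% of nuclei held 13052 of the 175824 Dnah and Cfap UMIs (7.42%), while astrocyte-like nuclei, 2.25% of all, held 1.20%, and oligodendrocyte-like nuclei, 9.56% of all, held 5.02%. Neuron-like nuclei, which were 60.4% of the nuclei and deeper, held 66.8% of the Dnah and Cfap UMIs and 75.2% of the 135289 Rfx UMIs. The share in ependymal-like nuclei differed widely by gene. It was 76.0% for Cfap221, a central apparatus protein, 71.1% for Dnah3, 69.9% for Cfap44, 64.2% for Cfap100, 55.7% for Dnah6 and 46.6% for Dnah12, compared with 6.34% for Dnah9, 1.98% for Cfap69 and 0.754% for Rfx3.

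In CPM, 41 of the 52 genes were highest in ependymal-like nuclei, though the lead of Cfap36, Cfap97, Cfap298, Cfap410 and Rfx1 over the next class was within counting error. The share of all genes that are highest in this class was not computed. Of the other 11, 3 had too few UMIs to be ordered (Cfap73, Cfap97d1 and Rfx6) and 8 were highest elsewhere. Cfap20dc stood at 1007 CPM in oligodendrocyte-like nuclei, 9.60-fold above OPC-like nuclei (8.21 to 11.3), the class with its next highest level. Rfx4, a factor of the neural progenitor and astrocyte lineage, stood at 347 CPM in astrocyte-like nuclei, 1.22-fold above ependymal-like nuclei with an interval that includes 1 (0.994 to 1.51). The leading class of Cfap20 (OPC-like), Dnah8 (myeloid-like), Rfx5 and Rfx8 (fibroblast-like) did not differ from the next beyond counting error either, while Rfx7 was 1.21-fold higher in myeloid-like than in oligodendrocyte-like nuclei (1.11 to 1.32) and Dnah17, with 19 UMIs, 2.46-fold higher in endothelial-like than in oligodendrocyte-like nuclei (1.40 to 4.14). The genes led by ependymal-like nuclei also differed in how far they led. Dnah3 was 393-fold and Cfap44 246-fold above the class with the next highest level, Dnah9 26.8-fold above astrocyte-like nuclei, Cfap69 11.3-fold above neuron-like nuclei, and Dnah5 5.65-fold and Cfap52 6.35-fold above OPC-like nuclei.

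**Figure D1:**
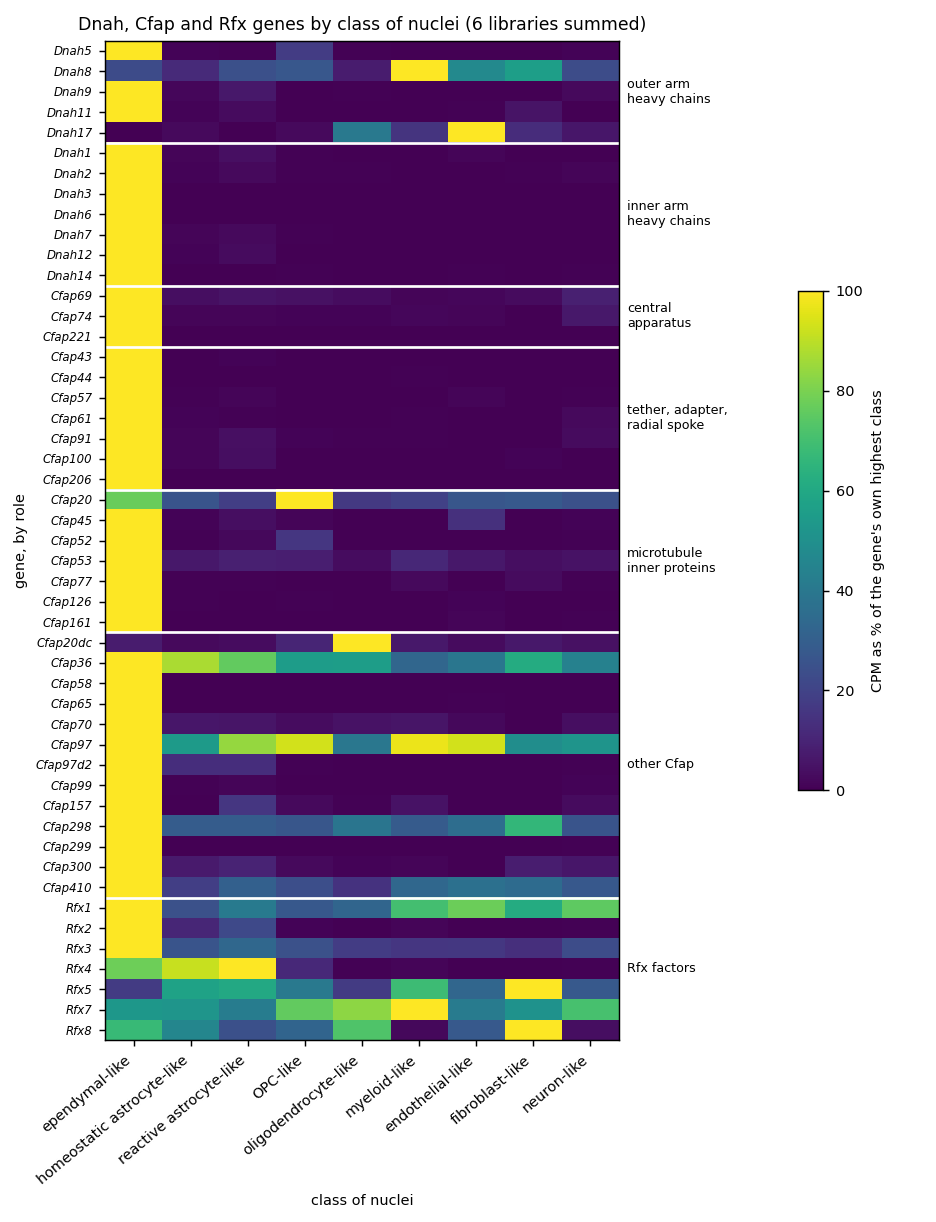
Levels of 49 of the 52 genes by class of nuclei, with UMIs of the 6 libraries summed; colours give the CPM of a gene as a percentage of its own highest class, genes are grouped by role, and 3 genes with too few UMIs are left out. The left column, ependymal-like nuclei, is at 100% for 41 genes, while Cfap20dc peaks in oligodendrocyte-like nuclei, Rfx4 in astrocyte-like nuclei, and Cfap36, Cfap97 and most Rfx genes are spread over classes.

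By role, the gap between ependymal-like and astrocyte-like nuclei was widest among parts of the axoneme. Summed over the 6 libraries, the 5 outer arm heavy chains stood at 6465 CPM in ependymal-like nuclei, compared with 88.0 in homeostatic and 256 in reactive astrocyte-like nuclei. The 7 inner arm heavy chains stood at 11529 CPM, compared with 93.6 and 237, and the 8 tether, adapter and radial spoke genes at 6235 CPM, compared with 39.4 and 67.0. The 8 Rfx genes stood at 2373 CPM in ependymal-like nuclei and at 969 and 1121 in the 2 astrocyte states, and were thus the role group with the smallest ratio.

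Among outer arm heavy chains, Dnah9 stood at 1377, 1410, 2400, 2116, 2724 and 2840 CPM in ependymal-like nuclei, given here and in the sentences that follow for Sham L, Sham R, the moderate and severe MCAO contra libraries and the moderate and severe MCAO ipsi libraries. Dnah11, which is mutated in a form of primary ciliary dyskinesia, as are Dnah5 and Dnah9, stood at 1745, 1410, 2413, 1929, 2843 and 2886 CPM. Dnah5 stood at 780.5, 705, 1377, 1462, 1260 and 1295 CPM. All 3 genes were lower in both Sham libraries than in each of the 4 MCAO libraries, with 3 to 38 UMIs behind each Sham value. Of the other outer arm genes, Dnah8 had 1 UMI and Dnah17 none in ependymal-like nuclei.

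Among inner arm heavy chains, Dnah12 stood at 4224, 3290, 4590, 4325, 5039 and 5481 CPM. Dnah6 stood at 1928, 2115, 2124, 2240, 2281 and 2062 CPM, the narrowest spread of the genes named here. Dnah3 stood at 918, 470.0, 1521, 1494, 1702 and 1556 CPM. Dnah7 ranged from 705 in Sham R to 1692 CPM in mMCAO contra. Dnah12 and Dnah3 were again lowest in the Sham libraries, whereas Dnah6 was not.

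Of the Cfap genes, Cfap69, a central apparatus protein, stood at 1836, 1645, 2308, 2396, 2621 and 2602 CPM, with both Sham libraries below the others. Cfap61, a calmodulin-associated radial spoke factor, stood at 1010, 2350, 2452, 1898, 2417 and 1971 CPM, with only Sham L set apart. Cfap44, part of the tether of an inner arm dynein, stood at 964, 1410, 1285, 1556, 1549 and 1551 CPM. Cfap52, a microtubule inner protein, ranged from 138 to 562 CPM, and its Sham values rest on 3 and 2 UMIs. Cfap299 stood at 1745, 1645, 2964, 3049, 2945 and 2857 CPM, and Cfap99 ranged from 689 in Sham L to 1534 CPM in sMCAO ipsi.

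The ciliary Rfx genes followed. Rfx3, which is needed for ependymal ciliogenesis, stood at 1010, 940.1, 1049, 1276, 1328 and 1681 CPM in ependymal-like nuclei, and Rfx2, its close relative, at 45.9, 235, 328, 622, 409 and 489 CPM, where each Sham value rests on 1 UMI. Rfx4 ranged from 0 in Sham R to 374 CPM in mMCAO ipsi, and Rfx7 from 45.9 to 235 CPM. Rfx1 reached at most 91.8 CPM, Rfx8 at most 45.9 CPM and Rfx5 at most 17.0 CPM, and Rfx6 had 1 UMI. In Sham R, where the class holds only 4255 UMIs, 3 UMIs correspond to 705 CPM, so that a gene at 0 there cannot be told from one present below that level.

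Single nuclei gave the same picture. Every ependymal-like nucleus had UMIs of at least 5 different Dnah and Cfap genes. The median number was 12, 11, 17, 14, 16 and 22, compared with 0 in the astrocyte-like nuclei of the Sham and MCAO contra libraries, 1 in those of mMCAO ipsi and 2 in those of sMCAO ipsi. This number grows with depth, and median depth in astrocyte-like nuclei was 614 to 1021 UMIs in Sham and MCAO contra and 1306 and 2403 in the moderate and the severe MCAO ipsi library.

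The comparison of ependymal-like with astrocyte-like nuclei within libraries asked which of the genes separate these 2 classes of glia. Of the 52 genes, 38 passed the filter on low counts, and 35 of them were higher in ependymal-like nuclei, 0 lower (edgeR quasi-likelihood test, 6 libraries with the library as a block, Benjamini-Hochberg adjustment over all genes, a call being an adjusted p under 0.05 with a log2 fold change of 0.6 or more in either direction). The percentage of all 3907 tested genes called in either direction was 54.0, and 25.0% were called higher. The median log2 fold change was 5.94 over the 38 genes and -0.23 over all tested genes. The 14 genes that were not tested included Rfx1, Rfx5, Rfx6 and Rfx8, and the filter keeps a gene that is high in 1 of the classes. The same comparison with DESeq2 also called 35.

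Largest were the log2 fold changes of Dnah3 (9.31 ± 0.52, SE), Cfap44 (8.61 ± 0.48, adjusted p = 3.38e-60 by edgeR), Cfap299 (8.23 ± 0.47) and Dnah6 (8.11 ± 0.46). Cfap43 followed with 7.65 ± 0.43, Cfap52 with 6.35, Dnah11 with 5.92 ± 0.40, Dnah12 with 5.89 ± 0.40 (adjusted p = 1.34e-42 by edgeR) and Dnah9 with 5.36 ± 0.39 (adjusted p = 4.44e-38 by edgeR). Smaller changes were those of Cfap69 (4.39 ± 0.36), Rfx2 (2.79 ± 0.32, adjusted p = 1.04e-16 by edgeR), Cfap20dc (1.81 ± 0.52, adjusted p = 0.00135 by edgeR) and Rfx3 (1.53 ± 0.31, adjusted p = 3.18e-06 by edgeR). Rfx4 (log2 fold change -0.43, edgeR adjusted p = 0.221), Cfap36 (0.21, 0.611) and Rfx7 (-0.20, 0.619) did not pass the test.

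A gate that used only the ependymal markers with no known part in cilia left 2, 1, 14, 13, 5 and 31 nuclei. It called 31 genes higher and 1 lower of 36 tested. The libraries with 2, 1 and 5 nuclei were below the number of nuclei required of a class elsewhere. The share of all tested genes called under this gate is not given, so these counts cannot be read against it. With so few nuclei, this gate is a limited check on the main one. Under the gate without cilia markers, the log2 fold changes were 4.89 ± 0.73 for Dnah12 and 4.41 ± 0.70 for Dnah9 (edgeR adjusted p = 4.79e-10 and 5.84e-09). Rfx3 no longer passed (0.98, edgeR adjusted p = 0.178), nor did Cfap20dc (1.32, 0.224), and Rfx4 was lower in ependymal-like nuclei (-1.52, edgeR adjusted p = 0.0416).

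Other genes of motile cilia, from a list that holds none of the 52, were higher in ependymal-like nuclei too. Ciliary markers helped to set this class, and the filter keeps a gene that is high in 1 of the classes. These calls are thus partly built in, and 25.0% of all tested genes were called higher. Of 71 listed genes 50 were tested and 49 were higher in ependymal-like nuclei, with a median log2 fold change of 4.66, among them the dynein intermediate chains Dnai1 (4.62 ± 0.34) and Dnai3 (7.38 ± 0.42). Of 34 genes of intraflagellar transport, the machinery that builds motile and primary cilia alike, 16 were tested, and 15 were higher and 1 lower, with a median log2 fold change of 1.98. Of 14 regulators of multiciliogenesis only Ccdc78 and Myb could be tested, and both were higher.

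In ependymal-like nuclei the smallest library had 7 nuclei, fewer than the 10 required of a class, so the comparison of conditions was run with a limit of 5 nuclei, chosen after the data were seen. Of 31 genes tested, Dnah9 was higher in MCAO ipsi than in Sham (log2 fold change 0.94 ± 0.25, edgeR adjusted p = 0.0208), with 11.4% of 1347 genes called, 1.71% higher and 9.73% lower, and the medians were 0.47 over the 31 genes and 0.10 over all. Cfap299 (0.69, edgeR adjusted p = 0.0659), Rfx2 (2.44, 0.0728), Dnah11 (0.73, 0.0830) and Dnah3 (0.91, 0.105) missed the threshold. MCAO ipsi against MCAO contra gave no call among the 31 genes (edgeR, 0.0742% of all genes called, 0 of the 31 at an unadjusted p under 0.05, 0 by DESeq2). MCAO contra against Sham gave none either (0.742% of all genes, 8 higher at an unadjusted p under 0.05, 0 by DESeq2). These comparisons share their control libraries.

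The call for Dnah9 rests on few nuclei. DESeq2 gave it an adjusted p of 0.250, and edgeR an adjusted p of 0.127 without mMCAO contra, 0.146 without sMCAO contra, 0.0988 without mMCAO ipsi and 0.151 without sMCAO ipsi. Without Sham L, Sham R was the only Sham library, with 7 nuclei and 4255 UMIs. The log2 fold changes were then 1.63 for Dnah12, 1.97 for Dnah11, 2.73 for Dnah3, 1.76 for Cfap299 and 1.61 for Cfap69. Without Sham R, which left Sham L alone, the log2 fold change of Cfap61 was 1.11. Without mMCAO contra, that of Rfx2 was 2.58. The number of all genes called moved in these fits as well. Of the other cilium genes, 0 of 37 were called in MCAO ipsi against Sham, and Myb was higher (3.33). Myb stood at 45.9 CPM in Sham L, where 3 UMIs correspond to 138 CPM, and at 0 in Sham R. Its log2 fold change in MCAO contra against Sham was 3.50, without a call.

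In astrocyte-like nuclei (161, 112, 312, 198, 358 and 433, libraries ordered as above) the dynein genes were present at a low level, and Dnah9 and Dnah12 rose on the infarcted side. Dnah9 stood at 22.3, 25.2, 13.9, 37.0, 74.6 and 151 CPM, from 3, 2, 5, 7, 38 and 181 UMIs. Dnah12 stood at 37.1, 37.8, 39.0, 74.0, 106 and 120.5 CPM. For both, the 2 MCAO ipsi libraries were above all others. Dnah11 stood at 22.3, 0, 30.6, 21.1, 62.8 and 57.7 CPM, with the same order of groups. Rfx2 stood at 59.4, 12.6, 22.3, 21.1, 92.3 and 80.3 CPM, and Sham L lay nearest to the MCAO ipsi libraries.

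The other Rfx genes were closer between libraries. Rfx3 stood at 312, 315, 356, 354, 407 and 456 CPM and Rfx4 at 312, 328, 303, 402, 369 and 346 CPM, and for Rfx4 the groups overlapped. Rfx7, a family member also known from lymphocytes, stood at 215, 277, 184, 164, 149 and 136 CPM, lowest in the MCAO ipsi libraries. Cfap69 (37.8 to 120.5 CPM) and Cfap36 (100.2 to 189 CPM) showed no order by group. Several genes that are high in ependymal-like nuclei had few UMIs here, among them Dnah6 (0 to 16.7 CPM), Dnah3 (0 to 12.6 CPM) and Cfap299 (1.96 to 15.9 CPM).

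**Figure D2:**
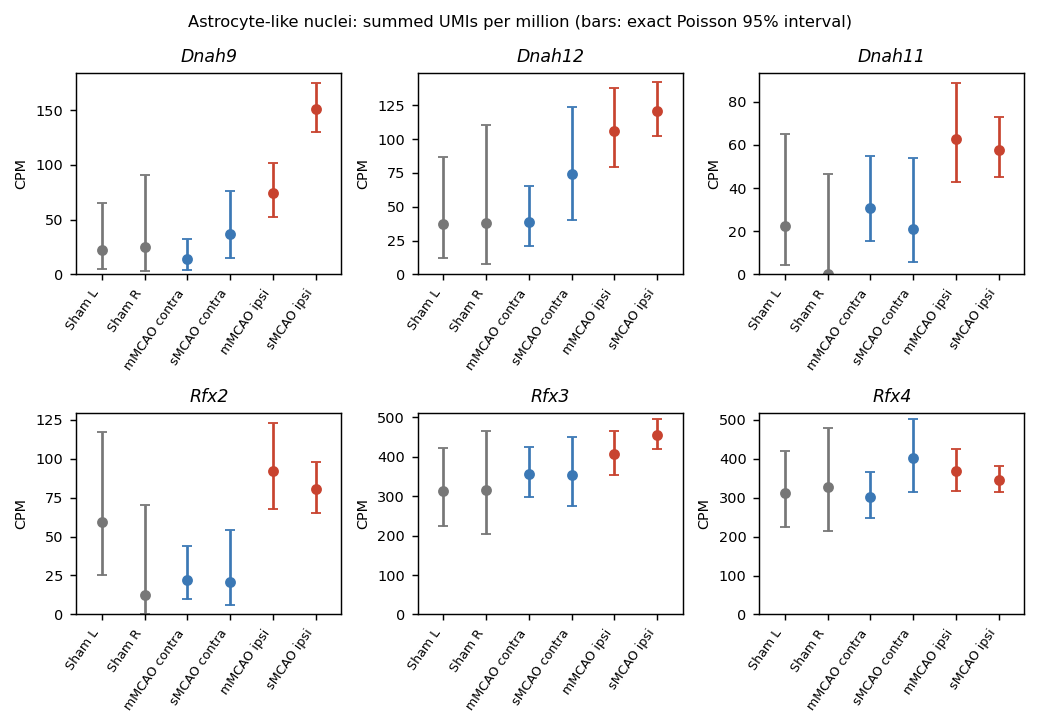
Levels of 6 genes in astrocyte-like nuclei of each library in CPM, with exact Poisson 95% intervals; grey is Sham, blue MCAO contra and red MCAO ipsi. Dnah9, Dnah12 and Dnah11 are highest in the 2 MCAO ipsi libraries, while the intervals of Rfx4 overlap in all 6.

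Against Sham, 12 of the 52 genes could be tested in astrocyte-like nuclei, and 2 were higher and 1 lower in MCAO ipsi, with 15.1% of 6043 genes called, 7.65% higher and 7.45% lower (medians 0.48 over the 12 genes and 0.03 over all). Dnah9, Dnah11 and Rfx2 passed the filter on low counts only through the MCAO ipsi libraries, where they are high. The number called thus cannot be read against these shares, nor the median over the 12 genes against that over all. Dnah9 was higher by a log2 fold change of 2.28 ± 0.61 (edgeR adjusted p = 0.0164) and Dnah12 by 1.57 ± 0.46 (edgeR adjusted p = 0.0275), while Rfx7 fell by 0.80 (SE 0.26, edgeR adjusted p = 0.0446). In the same nuclei the neuronal transcript Rbfox1 stood at 2115 and 2167 CPM in Sham L and Sham R and at 868 and 773 CPM in the MCAO ipsi libraries, and Snap25 at 356 and 328 and at 78.6 and 33.5 CPM, while Rfx7 stood at 221 to 243 CPM in neuron-like nuclei. The part of neuronal transcripts in the change of Rfx7 was not tested. Dnah11 (2.04, edgeR adjusted p = 0.0605), Rfx2 (1, 0.205), Rfx3 (0.43, 0.227) and Rfx4 (0.13, 0.791) were not called. None of the 3 calls was made without Sham L (edgeR adjusted p = 0.254 for Dnah9, 0.267 for Dnah12 and 0.186 for Rfx7) or without Sham R (0.111, 0.144 and 0.279), and DESeq2 made none (0.0938, 0.176 and 0.221). Without sMCAO ipsi the change of Dnah9 was 1.65 (edgeR adjusted p = 0.155) and that of Rfx7 -0.69 (0.150), and without sMCAO contra Rfx7 also missed the threshold (0.0592), whereas Dnah11 passed it (2.05, 0.0473).

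Against MCAO contra, 3 of the same 12 genes were higher in MCAO ipsi and 0 lower, with 14.5% of all genes called, 7.28% higher and 7.18% lower (medians 0.24 and -0.01). For the same reason as against Sham, the number called cannot be read against these shares. They were Dnah9 (2.32 ± 0.46, edgeR adjusted p = 0.00206), Rfx2 (1.90 ± 0.42, edgeR adjusted p = 0.00488) and Dnah12 (1.06 ± 0.33, edgeR adjusted p = 0.0368). Without mMCAO contra none of them passed (1.62, 1.97 and 0.59, edgeR adjusted p = 0.108, 0.0899 and 0.508), and Dnah12 also missed the threshold without Sham L (edgeR adjusted p = 0.0596) and without Sham R (0.0590), which enter through the shared estimate of spread. DESeq2 called Dnah9 alone (adjusted p = 0.0314). MCAO contra against Sham gave 0 calls among the 12 genes by edgeR (0% of all genes called, 0 of the 12 at an unadjusted p under 0.05, 0 by DESeq2).

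Ependymal transcripts moved with these changes. The summed ependymal markers in astrocyte-like nuclei were 59.4, 63.0, 91.9, 116, 200.3 and 245 CPM. Among astrocyte-like nuclei without a UMI of any ependymal marker, Dnah9 stood at 23.4, 26.2, 9.64, 23.7, 65.9 and 80.1 CPM, again highest in the MCAO ipsi libraries, and its log2 fold change was 1.54 against Sham (edgeR adjusted p = 0.0936) and 2.25 against MCAO contra (0.00690). In the same nuclei, Rfx2 remained called against MCAO contra (1.71, edgeR adjusted p = 0.0407), and Dnah12 was not called in either comparison (1.12 and 1.05, edgeR adjusted p = 0.191 and 0.111).

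Other classes of the same libraries were set beside these levels. Myeloid-like nuclei carried 169 and 246 CPM of the ependymal markers in mMCAO ipsi and sMCAO ipsi, close to the astrocyte-like values. Their Dnah9 stood at 12.8 and 4.66 CPM. The markers stood at 53.3 and 34.5 CPM in OPC-like, 33.7 and 25.0 in oligodendrocyte-like and 79.3 and 37.8 in endothelial-like nuclei. Fibroblast-like nuclei carried 29.4 and 73.1 CPM of them and neuron-like nuclei 125 and 112. Over all libraries, Dnah9 stood at 2.62% of its ependymal-like level in neuron-like nuclei, compared with 1.62% in homeostatic and 6.63% in reactive astrocyte-like nuclei. With nuclei thinned to 1000 UMIs, the share of astrocyte-like nuclei with a Dnah9 UMI was 1.13 and 1.37% in the MCAO contra libraries (moderate and severe) and 5.42 and 13.1% in the MCAO ipsi libraries (1.60, 3.03, 8.10 and 20.6% without thinning), compared with 1.24% and 0.398% of the myeloid-like nuclei of mMCAO ipsi and sMCAO ipsi. In mMCAO contra it was 3.71% of 29 myeloid-like nuclei, so that the astrocyte-like share was not above the myeloid-like share there. For Dnah12 the thinned shares of astrocyte-like nuclei were 2.48, 5.65, 6.53 and 10.4%, compared with 1.10% and 0.218% of those myeloid-like nuclei. The thinned share of ependymal-like nuclei with a Dnah9 UMI was 85.2 to 93.5% in the 4 MCAO libraries. Thinning left out 147, 135, 97 and 18 shallower astrocyte-like nuclei of these 4 libraries.

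Of the 181 Dnah9 UMIs in astrocyte-like nuclei of sMCAO ipsi, spread over 89 nuclei with at most 8 in a nucleus, 64 lay in the 56 nuclei that had UMIs of 2 or more ependymal markers. Nuclei with a Dnah9 UMI carried 556 CPM of ependymal markers there, compared with 178 in the others. In mMCAO ipsi the same levels were 383 and 184 CPM, and 5 of 38 UMIs lay in nuclei with 2 or more ependymal markers.

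The change from Sham to MCAO ipsi was then compared between ependymal-like and astrocyte-like nuclei. By edgeR 0 of 38 genes were called, with 0.768% of all genes called, 5 genes at an unadjusted p under 0.05 and 0 calls by DESeq2. The lowest p was that of Dnah5, whose change was higher in ependymal-like nuclei by 3.14 on the log2 scale (edgeR adjusted p = 0.0836). A difference between the classes in the response of Dnah9 was thus not shown.

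Among the other ciliary genes in astrocyte-like nuclei, 3 of 14 tested were higher in MCAO ipsi than in Sham (Dnai1, Dnai4 and Enkur), where 7.65% of all genes were, and 2 of 14 higher than in MCAO contra (Dnai4 and Enkur), where 7.28% of all genes were. The filter on low counts can keep a gene that is high only in MCAO ipsi, so these numbers cannot be read against the shares. By edgeR 0 of 17 intraflagellar transport genes changed in either comparison, and Cep152, a centriole duplication factor, was higher in both.

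Astrocyte-like nuclei were further divided by the share of reactive markers (such as Gfap, Vim and Osmr) among their homeostatic and reactive marker UMIs. These lists hold genes that the study chose on these samples. Homeostatic nuclei numbered 157, 110, 299, 176, 236 and 144, reactive nuclei 4, 2, 12, 19, 114 and 288. In homeostatic nuclei Dnah9 stood at 22.8, 25.6, 8.73, 35.5, 71.6 and 57.9 CPM, Dnah12 at 30.4, 12.8, 32.0, 35.5, 71.6 and 66.2 CPM, and Rfx2 at 38.0, 12.8, 23.3, 17.8, 65.6 and 71.7 CPM. For all 3 genes the MCAO ipsi libraries were above the others in homeostatic nuclei as well. The reactive transcript Gfap stood in these nuclei at 205, 268, 413, 828, 1784 and 1861 CPM, and 42.5 and 24.7% of the astrocyte-like nuclei of mMCAO ipsi and sMCAO ipsi lay near the split (10 to 30% reactive UMIs), compared with 2.48 to 11.1% in the other libraries. The part of this in the homeostatic levels was not tested. In reactive nuclei of mMCAO ipsi and sMCAO ipsi, Dnah9 stood at 78.8 and 193 CPM, Dnah12 at 182 and 145 CPM, Dnah11 at 97.0 and 68.8 CPM and Rfx2 at 139 and 83.3 CPM.

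Within homeostatic nuclei, 10 genes were tested. Rfx2 (log2 fold change 1.64, edgeR adjusted p = 0.0355) and Dnah9 (1.79, edgeR adjusted p = 0.05 after rounding) were higher in MCAO ipsi than in MCAO contra, with 7.48% of 5427 genes called and 3.92% called higher. Both genes passed the filter on low counts only through the MCAO ipsi libraries, where they are high. Their number thus cannot be read against these shares. Against Sham 0 of 10 were called by edgeR (9.10% of all genes called, 4.26% higher and 4.85% lower, an unadjusted p under 0.05 for 3 genes that were higher and 1 that was lower, 0 calls by DESeq2). Both calls were lost without mMCAO contra (edgeR adjusted p = 0.263 and 0.680) and without sMCAO ipsi (0.256 and 0.158). Without mMCAO ipsi neither was made, since Rfx2 missed the threshold (0.121) and Dnah9 did not pass the filter on low counts. The call of Rfx2 was also lost without sMCAO contra (0.122), in nuclei without a UMI of an ependymal marker (0.204) and by DESeq2 (0.554), and that of Dnah9 by DESeq2 (0.637).

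Reactive were compared with homeostatic nuclei within the 4 MCAO libraries, the question being whether ciliary genes mark the reactive state. Of 15 genes tested 2 were higher in reactive nuclei and 0 lower, with 8.60% of 6443 genes called, 3.45% higher and 5.15% lower (medians 0.28 over the 15 genes and -0.08 over all). Dnah12 was higher by a log2 fold change of 1.31 ± 0.32 (edgeR adjusted p = 0.00157) and Dnah9 by 1.05 ± 0.35 (edgeR adjusted p = 0.0347). Dnah11 (0.90, edgeR adjusted p = 0.2), Rfx2 (0.45, 0.586), Rfx3 (-0.05, 0.960) and Rfx4 (0.05, 0.960) were not called.

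Both calls depended on the libraries used. Without mMCAO ipsi neither passed (edgeR adjusted p = 0.0721 for Dnah12 and 0.105 for Dnah9), and Dnah9 also missed the threshold without mMCAO contra (0.0882) and without sMCAO ipsi, where its log2 fold change was 0.31 (0.933). In nuclei without a UMI of an ependymal marker neither was called (Dnah12 0.75, edgeR adjusted p = 0.320, and Dnah9 0.56, 0.572), and DESeq2 did not call Dnah9 (adjusted p = 0.594). The call of Dnah9 was also lost with predicted doublets kept (edgeR adjusted p = 0.0784), without nuclei near the split (0.0501), with no filter on low counts (0.180) and with no replicate block (0.112), while that of Dnah12 was made in these. The other cilium genes gave 1 call of 19, Ttll9, which was lower in reactive nuclei, and the intraflagellar transport genes 0 of 17.

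The levels in reactive astrocyte-like nuclei of the 2 MCAO ipsi libraries were then set against those of the ependymal-like nuclei of the same libraries, gene by gene. The ependymal markers helped to set both classes, so that the gate is part of their percentage. They stood at 1.43% (1.26 to 1.61) of their ependymal-like level. Dnah9 stood above that, at 6.19% (5.21 to 7.33), as did Cfap69 at 4.94%, Dnah12 at 2.81% (2.36 to 3.33), Dnah7 at 2.65% and Dnah11 at 2.56%. Taken alone, sMCAO ipsi had Dnah9 at 6.80% (5.65 to 8.14) and the markers at 1.44%. In mMCAO ipsi Dnah9 stood at 2.89% (1.51 to 5.09), with an interval that overlapped that of the markers (0.857 to 1.73). There Cfap69 (4.16%), Dnah7 (3.64%), Dnah12 (3.61%) and Dnah11 (3.41%) stood above Dnah9. In the 2 MCAO ipsi libraries together, again and in what follows, Dnah5 stood at 0.783% (0.371 to 1.46), with an interval that overlapped that of the markers. Below the markers were Cfap61 at 0.532%, Dnah6 at 0.333% (0.133 to 0.691), Cfap44 at 0.260% and Cfap299 at 0.175%. Dnah3 had 0 UMIs, compared with 374 in ependymal-like nuclei, which allows up to 0.234%. The percentage thus differed from gene to gene among genes that are high in ependymal-like nuclei, and the cause was not tested. The Rfx genes stood far higher, Rfx2 at 19.8%, Rfx3 at 29.6%, Rfx7 at 70.4% and Rfx4 at 126%. Also above Dnah9 were Cfap36 at 78.8%, Cfap20 at 19.3%, Cfap97d2 at 12.6% and Cfap300 at 9.45%, and Cfap70 stood at 5.81%. In homeostatic nuclei of the same libraries Dnah9 stood at 2.29% (1.66 to 3.10), Dnah12 at 1.28% and the markers at 0.962% (0.799 to 1.15). Cfap97d2 stood there at 16.2% and Cfap70 at 6.68%.

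**Figure D3:**
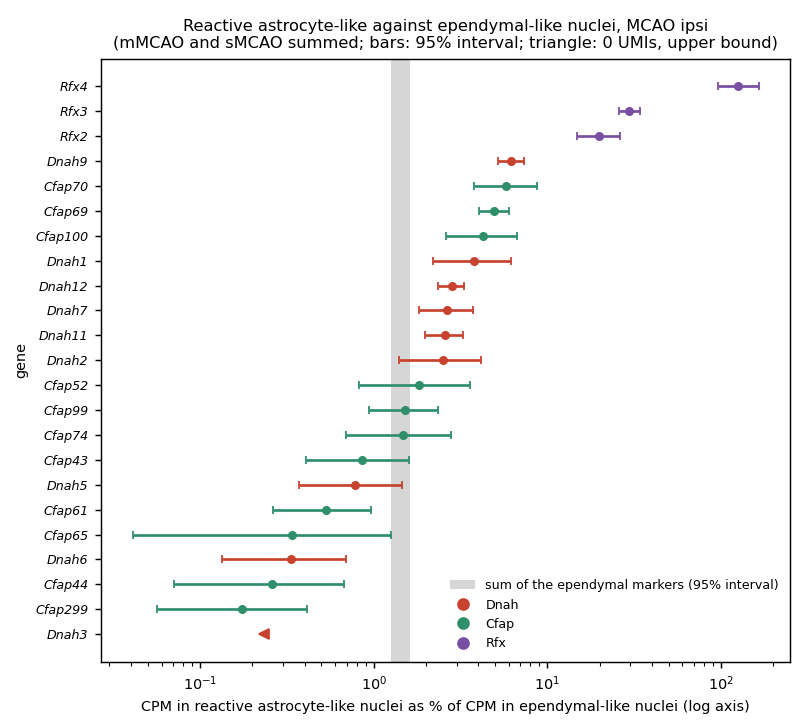
CPM in reactive astrocyte-like nuclei as a percentage of the CPM in ependymal-like nuclei of the same 2 MCAO ipsi libraries, on a log axis with 95% intervals, for Rfx4 and genes with at least 100 UMIs in ependymal-like nuclei. The grey band is the sum of the ependymal markers (1.26 to 1.61%), Dnah9, Cfap69 and Dnah12 lie to its right, and Dnah6, Cfap44, Cfap299 and Dnah3 to its left. In mMCAO ipsi alone the interval of Dnah9 overlapped that of the markers.

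Reactive nuclei were also grouped by 2 pairs of transcripts. In sMCAO ipsi, 55 reactive nuclei had UMIs of Cp or A2m but not of Cd44 or Sema3c, and 106 the reverse. All 4 are genes of the reactive marker list. Another 98 nuclei had UMIs of both pairs and 29 of neither, and these were left out. The part of depth in this grouping was not tested. Dnah9 stood at 755 CPM in the former and 25.6 CPM in the latter, a ratio of 29.5 (14.8 to 66.8). Dnah11 stood at 169 and 14.2 CPM, Cfap69 at 346 and 56.8 CPM, Dnah12 at 258 and 48.3 CPM, and Rfx3 at 746 and 329 CPM, while Rfx4 stood at 337 and 281 CPM with a ratio whose interval includes 1 (0.803 to 1.76). All Dnah and Cfap genes together stood at 2522 and 551 CPM, a ratio of 4.58. The ependymal markers also differed, at 604 and 153 CPM, and the nuclei with Cp or A2m were shallower, with a median of 1737 UMIs compared with 3226.

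In mMCAO ipsi the same kinds held 20 and 51 nuclei, and 22 nuclei with UMIs of both pairs and 21 of neither were left out. Dnah12 stood at 553 and 23.2 CPM (11 and 2 UMIs), Dnah9 at 201 and 23.2 CPM (4 and 2 UMIs) and Cfap69 at 251 and 11.6 CPM, while Rfx3 stood at 352 and 441 CPM. The ependymal markers stood here at 50.3 and 186 CPM, from 1 and 16 UMIs, with a ratio of 0.271 whose interval includes 1 (0.00645 to 1.74). Without the nuclei that had a UMI of an ependymal marker, Dnah9 stood at 542 and 18.1 CPM in sMCAO ipsi and at 211 and 31.8 CPM in mMCAO ipsi, and Dnah12 at 232 and 40.7 CPM and at 528 and 31.8 CPM. With and without these nuclei, the intervals of the kinds did not overlap for Dnah12 in either library nor for Dnah9 in sMCAO ipsi, whereas those for Dnah9 in mMCAO ipsi did. Cp itself stood at 323 and 778 CPM in the ependymal-like nuclei of mMCAO ipsi and sMCAO ipsi, compared with 339.6 and 434 CPM in the reactive nuclei. Each library was described by itself with counting error only, and no test between kinds was made.

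**Figure D4:**
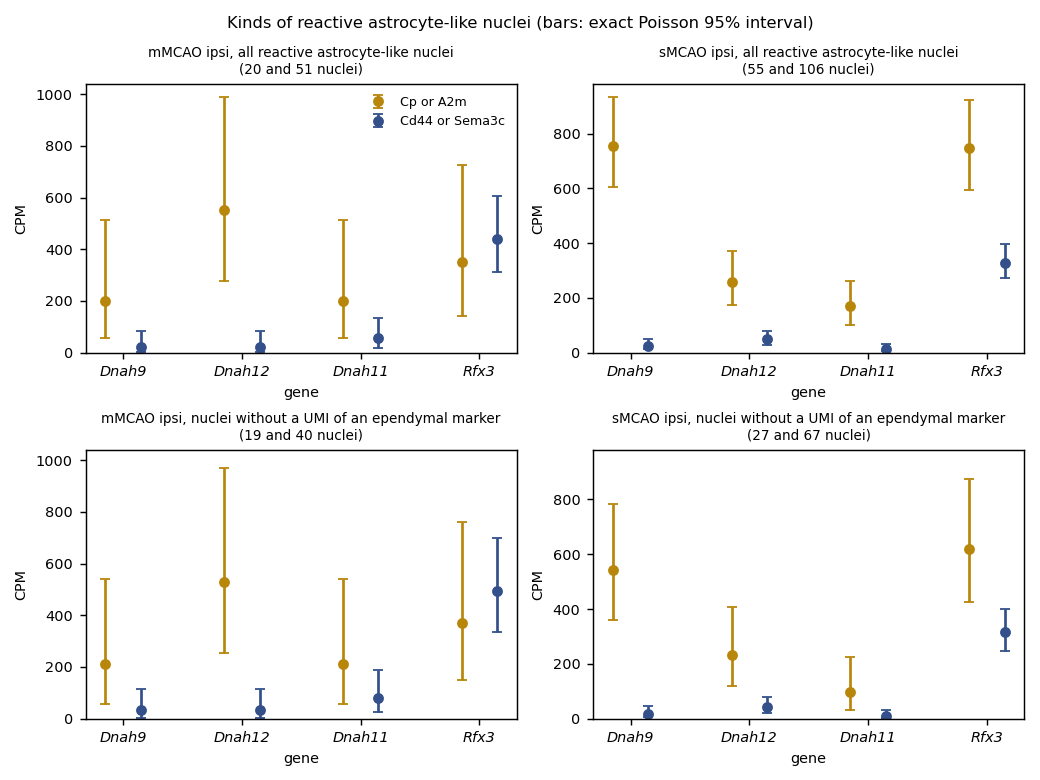
Levels of Dnah9, Dnah12, Dnah11 and Rfx3 in CPM with exact Poisson 95% intervals in reactive astrocyte-like nuclei with Cp or A2m (gold) and with Cd44 or Sema3c (blue), for all such nuclei (top) and for those without a UMI of an ependymal marker (bottom). The gold points of Dnah9 and Dnah12 lie above the blue ones in all 4 panels, and those of Rfx3 only in sMCAO ipsi.

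OPC-like nuclei (70, 51, 221, 157, 224 and 290) had their own members of the families. Dnah5 stood at 265, 285, 297, 252, 270.3 and 159 CPM, lowest in sMCAO ipsi, and Cfap52 at 11.5 to 80.0 CPM, while Dnah12 had 0 or 1 UMI in each library. Rfx3 stood at 185, 285, 211, 252, 381 and 457 CPM, highest in the MCAO ipsi libraries. Against MCAO contra, Rfx3 was the 1 gene of 9 tested that was higher in MCAO ipsi (log2 fold change 0.81, edgeR adjusted p = 0.0184, 8.86% of 5100 genes called, 4.37% higher and 4.49% lower). The call was lost without mMCAO contra (edgeR adjusted p = 0.357), sMCAO contra (0.0972) or sMCAO ipsi (0.136), and by DESeq2 (0.278). Against Sham 0 of 9 were called by edgeR (9.12% of all genes called, 3.63% higher and 5.49% lower, 2 of the 9 at an unadjusted p under 0.05, 0 by DESeq2), with Rfx3 at 0.86 (edgeR adjusted p = 0.0584) and Cfap20 at 2.33 (0.0553). Without mMCAO ipsi, which left 1 MCAO ipsi library, the log2 fold changes of Rfx3 and Cfap20 were 0.99 and 2.56. Against MCAO contra those of Dnah5 and Cfap69 were then -0.90 and -0.83. Calls rose over all genes in these fits as well. Without mMCAO contra or sMCAO contra, Cfap20 passed the threshold against Sham, with a log2 fold change of 2.34 or 2.33.

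In oligodendrocyte-like nuclei Cfap20dc stood at 839, 729, 1008, 971, 966 and 1191 CPM, lowest in the Sham libraries. Cfap69 stood at 121, 146, 74.8, 88.3, 83.7 and 47.0 CPM, lowest in sMCAO ipsi. Of 16 genes tested 0 were called by edgeR between MCAO ipsi and Sham or MCAO contra, as were 0% of all 9446 genes, and DESeq2 called none of the 16. The unadjusted p was under 0.05 against Sham for 1 gene that was higher and 3 that were lower, and against MCAO contra for 0 and 3. Without mMCAO ipsi, which left 1 MCAO ipsi library, calls rose over all genes and not only among the Dnah, Cfap and Rfx genes. The log2 fold changes against Sham were then -1.47 for Cfap69, -3.58 for Cfap74, -2.75 for Cfap61, -3.39 for Dnah5 and -2.44 for Dnah9. Against MCAO contra they were -0.81 for Cfap69, -2.81 for Cfap74 and -2.65 for Dnah9. In endothelial-like nuclei 2 genes could be tested and 0 were called by edgeR (0% of 2216 genes called, 0 of the 2 at an unadjusted p under 0.05, 0 by DESeq2).

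Neuron-like nuclei allowed a test of 45 genes. Dnah5 stood at 11.5, 11.1, 13.7, 16.2, 20.6 and 15.7 CPM and was higher in MCAO ipsi than in Sham (log2 fold change 0.62 ± 0.16, edgeR adjusted p = 0.0481), with 4.85% of 15768 genes called, 3.26% higher and 1.59% lower. This call was lost without Sham L, Sham R, mMCAO contra, sMCAO contra or mMCAO ipsi (edgeR adjusted p = 0.294, 0.218, 0.0899, 0.0887 and 0.0716). DESeq2 called 2 of the 45, Dnah5 and Dnah8. Without mMCAO ipsi the log2 fold changes by edgeR were 1.13 for Cfap43, 1.33 for Dnah8, 0.85 for Dnah11 and 1.15 for Rfx2. Without sMCAO ipsi they were 2.30 for Cfap126 and 0.88 for Dnah12. Each of these fits left 1 MCAO ipsi library, and calls rose over all genes as well. Against MCAO contra 0 of 45 were called by edgeR (2.16% of all genes called, an unadjusted p under 0.05 for 5 genes in each direction, 0 calls by DESeq2). Without sMCAO ipsi the log2 fold changes of Cfap126 and Dnah12 were 2.02 and 0.96, and there too calls rose over all genes. Dnah9 stood at 62.2 to 77.8 CPM in neuron-like nuclei of the 6 libraries and Rfx2 at 1.38 to 3.56 CPM. In these sums, a change in the mix of neuron types and a change per nucleus cannot be told apart. MCAO contra against Sham was tested by edgeR in each class with at least 10 nuclei in every library. It gave 0 calls among the 52 genes, of which 2 (endothelial-like) to 45 (neuron-like) could be tested (0% of all genes called, and 0.353% in OPC-like nuclei). The unadjusted p was under 0.05 for 2 genes in each direction in neuron-like nuclei and for 1 gene in oligodendrocyte-like nuclei. DESeq2 gave 1 call, Dnah8 in neuron-like nuclei, which edgeR also called without mMCAO ipsi or sMCAO ipsi (1.29 in both). Genes outside the 52 were called in those fits as well.

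Severe and moderate infarctions were each seen in 1 library and were not tested. Intervals here cover counting error only. The share of all genes with an interval that excludes 1 was not computed, so the counts below show nothing particular to these genes. Dnah9 in astrocyte-like nuclei was 2.03-fold higher in sMCAO ipsi than in mMCAO ipsi (1.42 to 2.96) and 2.45-fold higher in reactive nuclei (1.39 to 4.70), whereas in ependymal-like nuclei the ratio was 1.04 (0.871 to 1.25). Of 43 genes with at least 10 UMIs in ependymal-like nuclei, 40 had an interval that includes 1, and Cfap74 (0.480), Dnah7 (0.759) and Cfap61 (0.815) were lower in sMCAO ipsi. In OPC-like nuclei Dnah5 was lower in sMCAO ipsi (0.586, 0.429 to 0.806), the 1 gene of 15 whose interval excluded 1. In oligodendrocyte-like nuclei 2 of 18 genes were higher, among them Cfap20dc (1.23, 1.14 to 1.34), and 4 lower. In neuron-like nuclei 10 of 46 genes were higher, such as Dnah11 (1.79, 1.49 to 2.15) and Dnah9 (1.17, 1.09 to 1.26), and 7 lower, such as Dnah12 (0.532, 0.423 to 0.665). In astrocyte-like nuclei Rfx1 (3.69, 1.13 to 19.1) was, with Dnah9, the other of the 2 genes of 32 whose interval excluded 1.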

How the data were processed

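Single-nucleus libraries (10x 5′ kit) were aligned by the authors with Cell Ranger 7.0.0 to mRatBN7.2 with intronic reads, and the deposited values are raw UMI counts per gene and barcode, without removal of ambient RNA or doublets. Nuclei with at least 500 UMIs, 250 to 5000 genes and at most 5% mitochondrial UMIs were kept, and the 5% with the highest doublet scores per library were left out. A nucleus was put in a class by the number of its markers detected (5 for ependymal-like and astrocyte-like nuclei). The share of these markers detected also had to be at least 2 times that of any other class. As an exception, the ependymal share of an ependymal-like nucleus had only to exceed its astrocyte share. An astrocyte-like nucleus was reactive where reactive markers held more than 20% of its homeostatic and reactive marker UMIs, and homeostatic where they held less. Nuclei at 20% or without such UMIs were left out of both states. The thresholds were set after the data were seen. Counts were summed per library and class, for classes with at least 10 nuclei in each library, and tested over all genes with edgeR 4.0.16 (quasi-likelihood test, TMM, filter by expression, all groups in 1 fit, Benjamini-Hochberg adjustment, R 4.3.3). A call needed an adjusted p under 0.05 with a log2 fold change of 0.6 or more in either direction. The filter can keep a gene that is high in only 1 of the groups or classes compared. Genes named were those called, the highest in a class and those of the study. Members and lists were chosen with earlier results of these data known. DESeq2 1.42.0, RLE size factors, no filter, other gates, kept doublets, libraries left out and a rat pool block were alternatives. Ipsi and contra libraries of a severity come from the same rats. Their deviations from the group means correlated between the moderate pair by 0.07 (astrocyte-like nuclei), -0.25 (oligodendrocyte-like) and 0.21 (neuron-like). With 2 libraries a group that differ in severity, the same rats and severity cannot be told apart in these correlations. The scripts were tested on simulated data.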

Additional observations from a re-analysis of the deposited data

How the results depend on the processing

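Directions were followed through the alternative runs for the genes called and a few others named above. Among these, none that was called in the main or the alternative run reversed. Counts over all classes add the homeostatic nuclei to the astrocyte-like nuclei that contain them, so the calls counted are not all separate. Against MCAO contra, Dnah9 and Rfx2 are counted in both. The 35 genes higher in ependymal-like than in astrocyte-like nuclei numbered 31 to 39 with 1 library left out. The 2 genes called between reactive and homeostatic nuclei became 1 with no filter on low counts, with DESeq2, with predicted doublets kept, without nuclei near the split and with no replicate block, 0 in nuclei without an ependymal marker UMI, and 0 to 2 with a library left out. For MCAO ipsi against Sham, 4 calls over all classes became 13 with no filter, 2 with DESeq2 (both in neuron-like nuclei, of which Dnah5 was among the 4), 2 with the stricter gate, 1 in nuclei without an ependymal marker UMI and 0 to 14 with a library left out. For MCAO ipsi against MCAO contra, 6 calls became 1 with DESeq2, 3 without ependymal marker UMIs and 0 to 9 with a library left out, and the rat pool as a replicate block left the count at 6 and changed no call. For MCAO contra against Sham, 0 calls became 1 with no filter, 1 with DESeq2 and 0 to 1 with a library left out, and the difference between ependymal-like and astrocyte-like nuclei gave 0 to 1. In ependymal-like nuclei with at least 5 nuclei a library, the 1 call against Sham became 6 with no filter, 0 with DESeq2, 0 with doublets kept, 3 with the stricter gate and 0 to 6 with a library left out, and MCAO contra against Sham gave 0 to 2. With a library left out, the number of all genes called moved as well. The cause of these changes was not tested, and in Sham R 4255 UMIs limit what can be seen in ependymal-like nuclei.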
